A study of Mus musculus with 16 samples.

Results

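Naive pluripotency transcription factors were followed through retinoic acid (RA) treatment and a Sirt1 hairpin in mouse embryonic stem cells. The set held 10 genes, Klf2, Klf4, Klf5, Esrrb, Zfp42, Tbx3, Tfcp2l1, Nr0b1, Nr5a2 and Prdm14, and every array probe named for them, older symbols included, was taken. These names gave 17 probes for 9 of the 10 genes, out of 17665 genes tested on the arrays. Tfcp2l1 was found under its older name Tcfcp2l1, and Prdm14 was not analysed here because no probe carried its name. All 17 probes were well above background on all 16 arrays, and none was saturated.

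RNA came from E14 cells, an established mouse embryonic stem cell line, which stably carried a lentiviral short hairpin directed against Sirt1 (sh-SIRT1) or a control hairpin (sh-Control). Sirt1 encodes an NAD-dependent protein deacetylase. All cells, also during the RA treatment, were kept in M10 medium with serum and a factor that the labels call leukocyte inhibitory factor, taken here to be leukaemia inhibitory factor (LIF), a cytokine that holds stem cells undifferentiated. They received 20 nM RA or its ethanol vehicle for 2 days, and the 4 groups were sh-SIRT1 RA (6 arrays), sh-Control RA (4 arrays), sh-SIRT1 vehicle (3 arrays) and sh-Control vehicle (3 arrays). The isomer of RA, the hairpin sequences and whether a line derived from 1 clone are not given in the sources used here. The series design speaks of pairs of lines with duplicates and does not say which RA arrays duplicate each other, so the p-values measure a spread between arrays that may in part be technical.

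In the naive state, which resembles the cells of the early inner cell mass, a small network of transcription factors keeps self-renewal going around Pou5f1 and Sox2. LIF acts through the receptor Lifr and its partner Il6st on the kinase Jak1 and the transcription factor Stat3, which induces Klf4 and Tfcp2l1. Wnt signalling and inhibition of Gsk3 raise Esrrb and Tfcp2l1 by lifting repression by Tcf7l1. Klf2, Klf4 and Klf5 are related zinc finger proteins that share target sites. Esrrb and Nr5a2 are orphan nuclear receptors that bind an extended half-site, Nr0b1 is an atypical nuclear receptor that binds other receptors and Pou5f1 and often represses them, and Zfp42, also called Rex1, is a zinc finger protein long used as a marker of undifferentiated cells. Tbx3 is a T-box factor that supports naive cells and also takes part in endoderm formation. RA drives embryonic stem cells out of this state.

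Levels are on a log2 scale on which 0 is the 75th percentile of the probes of an array. They may be compared between arrays for 1 probe, and not between probes. Where a gene had several probes, the brightest stood for it. A difference between groups is followed by ± its standard error, and its p-value from limma was adjusted over all 17665 genes by the Benjamini-Hochberg method. A gene was called where the adjusted value was below 0.05. On this scale the median over all genes was -0.13 for RA against vehicle in sh-SIRT1 cells and -0.14 in sh-Control cells. Among the 388 genes whose mean level lay above 6, it was -0.42 in sh-SIRT1 cells and -0.34 in sh-Control cells. With quantile normalization these bright genes had medians of -0.04 in sh-SIRT1 cells and -0.01 in sh-Control cells. Klf2, Klf4 and Zfp42 belong to this bright range.

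Sirt1 had levels of 0.92 to 1.59 in sh-SIRT1 RA cells against 3.28 to 3.48 in sh-Control RA cells, and 1.83 to 1.89 in sh-SIRT1 vehicle against 3.53 to 3.85 in sh-Control vehicle cells. Between sh-SIRT1 and sh-Control cells the difference was -2.18 under RA (limma adjusted p = 2.42e-07) and -1.81 in vehicle (limma adjusted p = 3.92e-05). Between RA and vehicle Sirt1 was at -0.67 in sh-SIRT1 cells (limma adjusted p = 6.36e-04) and -0.30 in sh-Control cells (limma adjusted p = 0.104). Sh-Control RA arrays 2, 3 and 4 stood apart. Ddx3y, a gene of the Y chromosome, was not well above background there (-6.91, -8.01 and -8.12), against 0.23 on sh-Control RA array 1 and 0.33 to 1.60 on the arrays of vehicle and sh-SIRT1 RA cells. Eif2s3y, another gene of the Y chromosome, was lower there (-2.89, -2.53 and -2.51) than on the other arrays (0.98 to 2.16). All sh-Control vehicle arrays carried both signals. On arrays 2 to 4 a difference by RA, or by the hairpin under RA, cannot be told apart from whatever set these arrays apart. The members' RA differences in sh-Control cells are therefore also given with array 1 as the only sh-Control RA array, and without array 1. In the first of these fits that lone array is assumed to vary like those of the remaining groups. Differences between the lines are given in these ways for part of the members. For Sirt1 between the lines under RA the values were -2.29 with array 1 alone and -2.14 without it. All 8 stem cell markers checked, Pou5f1, Sox2, Nanog, Sall4, Utf1, Lin28a, Tdgf1 and Dppa4, were well above background on every array.

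The control regions of the 3 nuclear receptor genes are shown because these genes fell together under RA. RefSeq promoters of build GRCm38.p6, 250 bases before to 50 bases after a start, were at hand for 7 of the 10 genes, as 9 promoters. Capitals mark AGGTCA, the half-site of nuclear receptors, on either strand.
Nr0b1, chrX:86191525-86191824, plus strand: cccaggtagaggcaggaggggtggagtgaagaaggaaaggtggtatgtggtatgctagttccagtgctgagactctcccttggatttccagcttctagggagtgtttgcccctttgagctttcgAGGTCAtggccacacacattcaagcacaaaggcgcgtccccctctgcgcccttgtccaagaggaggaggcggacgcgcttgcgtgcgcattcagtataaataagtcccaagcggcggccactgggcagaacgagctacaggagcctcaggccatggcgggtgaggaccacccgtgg
Nr5a2, first promoter, chr1:136953581-136953880, minus strand: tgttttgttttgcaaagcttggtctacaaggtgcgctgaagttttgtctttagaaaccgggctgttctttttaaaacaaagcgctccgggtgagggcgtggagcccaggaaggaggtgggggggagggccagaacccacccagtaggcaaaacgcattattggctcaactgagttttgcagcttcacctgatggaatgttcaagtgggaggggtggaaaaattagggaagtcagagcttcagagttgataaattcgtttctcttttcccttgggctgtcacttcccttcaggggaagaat
Nr5a2, second promoter, chr1:136960399-136960698, minus strand: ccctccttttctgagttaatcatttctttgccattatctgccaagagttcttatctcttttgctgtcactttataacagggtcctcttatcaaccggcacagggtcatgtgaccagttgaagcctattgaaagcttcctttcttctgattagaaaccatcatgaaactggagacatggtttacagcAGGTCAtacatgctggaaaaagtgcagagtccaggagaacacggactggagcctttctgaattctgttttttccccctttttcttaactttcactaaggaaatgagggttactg
Esrrb, first promoter, chr12:86360867-86361166, plus strand: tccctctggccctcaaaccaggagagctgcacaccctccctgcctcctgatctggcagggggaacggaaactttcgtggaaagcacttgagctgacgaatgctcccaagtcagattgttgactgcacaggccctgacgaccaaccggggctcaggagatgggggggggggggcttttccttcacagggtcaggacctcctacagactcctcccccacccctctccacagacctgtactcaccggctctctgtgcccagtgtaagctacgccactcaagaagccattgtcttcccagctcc
Esrrb, second promoter, chr12:86421394-86421693, plus strand: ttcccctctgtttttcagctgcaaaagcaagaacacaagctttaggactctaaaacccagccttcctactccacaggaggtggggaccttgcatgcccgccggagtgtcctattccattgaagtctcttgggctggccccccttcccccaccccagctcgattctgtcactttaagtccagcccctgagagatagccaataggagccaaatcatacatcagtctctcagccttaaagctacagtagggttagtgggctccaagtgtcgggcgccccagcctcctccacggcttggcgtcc

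Both strands were searched for 6 motifs, and a match is a run of letters, not a shown site. AGGTCA stood in 2 of the 9 promoters, that of Nr0b1 and the second of Nr5a2, against 16.3% of 32851 promoters. Its extended form CAAGGTCA, which contains it, and its direct repeat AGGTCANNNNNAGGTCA, the retinoic acid response element with a spacing of 5 bases, stood in 0 of the 9, against 1.56% and 0.00913% of all promoters. The STAT motif TTCNNNGAA stood in the first Esrrb promoter alone (8.3% of all promoters). The octamer ATGCAAAT stood in the Zfp42 promoter alone (1.74% of all), and the KLF motif GGGNGTGG stood in the promoters of Zfp42 and Tfcp2l1 and the first of Nr5a2, 3 of 9 (17.6% of all).

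The nuclear receptor genes Nr0b1, Nr5a2 and Esrrb fell under RA in both lines, and Tbx3 rose. Of the 9 genes, 1 rose and 5 fell in sh-SIRT1 cells, and 1 rose and 4 fell in sh-Control cells. Over all genes tested, 23.3% rose and 35.1% fell in sh-SIRT1 cells (58.4% in either direction), and 19.9% rose and 27.2% fell in sh-Control cells (47.1% in either direction). The members' median difference was -0.54 in sh-SIRT1 cells and -0.28 in sh-Control cells. The shares called lower, 5 and 4 of 9, were above those over all genes and the shares called higher, 1 of 9, were below them, with too few members to read more from it. With sh-Control RA array 1 alone, 2 members rose and 3 fell in sh-Control cells, against 16.4% and 22.4% of all genes (38.9% in either direction).

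**Figure D1:**
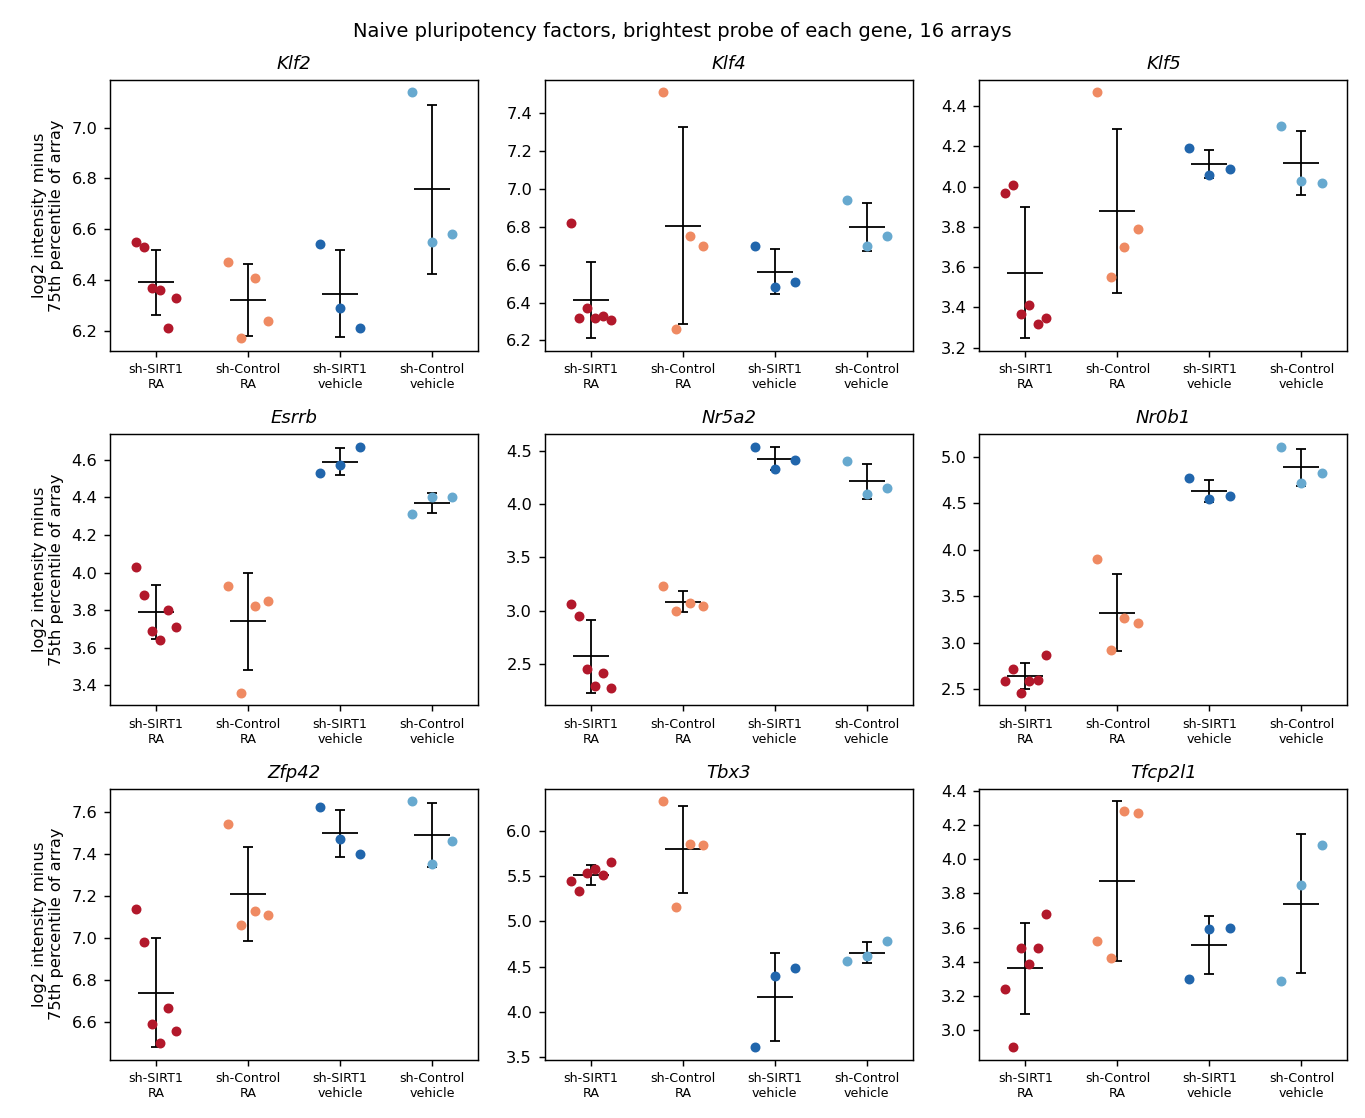
Levels of the 9 genes on the 16 arrays (log2 scale, 0 at the 75th percentile of the array, brightest probe), with a point for each array and mean ± SD for each group. Nr0b1, Nr5a2 and Esrrb lie lower in all RA arrays than in all vehicle arrays and Tbx3 lies higher, while Klf4 and Tfcp2l1 overlap between treatments.

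Nr0b1 fell under RA in both lines. Its probe lies at chrX:81582482-81582541 of build mm7, the build of all probe positions here. Its level was 2.59, 2.72, 2.46, 2.59, 2.60 and 2.87 in sh-SIRT1 RA cells against 4.77, 4.55 and 4.58 in sh-SIRT1 vehicle cells. In sh-Control cells it was 3.90, 2.92, 3.27 and 3.21 under RA against 5.11, 4.72 and 4.83 in vehicle. In both lines every RA array lay below every vehicle array, and sh-Control RA array 1 was the highest of the RA arrays. Nr0b1 was 3.99-fold lower under RA in sh-SIRT1 cells (-2.00 ± 0.17, limma adjusted p = 3.87e-07) and 2.95-fold lower in sh-Control cells (-1.56 ± 0.18, limma adjusted p = 1.32e-05). In sh-Control cells the difference was -0.98 with array 1 alone (limma adjusted p = 0.00162) and -1.75 without it.

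Nr5a2, also called Lrh-1, is a receptor that can stand in for Pou5f1 in reprogramming and activates Pou5f1 in stem cells. Its probe lies at chr1:136732418-136732477. Its level was 3.06, 2.95, 2.45, 2.29, 2.41 and 2.27 in sh-SIRT1 RA cells against 4.54, 4.33 and 4.41 in sh-SIRT1 vehicle cells. Sh-Control cells had 3.23, 3.00, 3.07 and 3.04 under RA against 4.40, 4.09 and 4.15 in vehicle. The treatments did not overlap in either line, and sh-SIRT1 RA arrays 1 and 2 lay above the other 4. Nr5a2 was 3.62-fold lower under RA in sh-SIRT1 cells (-1.86 ± 0.17, limma adjusted p = 6.52e-07) and 2.19-fold lower in sh-Control cells (-1.13 ± 0.18, limma adjusted p = 1.85e-04). When sh-Control RA array 1 stood alone it was -0.98 (limma adjusted p = 0.0227), and without it -1.18.

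Esrrb, a receptor through which Gsk3 inhibition supports self-renewal, fell in both lines. Its brightest probe lies at chr12:84523822-84523881 and its other probe at chr12:84517502-84517561. The brightest gave 4.03, 3.88, 3.69, 3.64, 3.80 and 3.71 in sh-SIRT1 RA cells against 4.53, 4.57 and 4.67 in sh-SIRT1 vehicle cells. Sh-Control cells gave 3.93, 3.36, 3.82 and 3.85 under RA against 4.31, 4.40 and 4.40 in vehicle. Again the treatments did not overlap, and the arrays within a group lay close together apart from sh-Control RA array 2. The difference was -0.80 ± 0.12 in sh-SIRT1 cells (limma adjusted p = 5.65e-05) and -0.63 ± 0.13 in sh-Control cells (limma adjusted p = 0.00123). The other probe gave -1.52 ± 0.18 in sh-SIRT1 and -0.88 ± 0.19 in sh-Control cells, called in both lines. For sh-Control RA array 1 alone Esrrb was at -0.44 (limma adjusted p = 0.0344), and without it at -0.69.

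Tbx3 rose under RA in both lines. Its brightest probe lies at chr5:118918450-118918509. Its level was 5.45, 5.34, 5.54, 5.58, 5.51 and 5.66 in sh-SIRT1 RA cells against 3.61, 4.40 and 4.49 in sh-SIRT1 vehicle cells. Levels in sh-Control cells were 6.33, 5.16, 5.85 and 5.84 under RA against 4.56, 4.62 and 4.79 in vehicle. All RA arrays lay above all vehicle arrays of their line, and sh-SIRT1 vehicle array 1 was low. Tbx3 was 2.55-fold higher under RA in sh-SIRT1 cells (1.35 ± 0.22, limma adjusted p = 1.15e-04) and 2.2-fold higher in sh-Control cells (1.14 ± 0.24, limma adjusted p = 0.00137). The second probe, at chr5:118906718-118906777, gave 1.32 ± 0.26 in sh-SIRT1 and 0.98 ± 0.28 in sh-Control cells and was called in both. With sh-Control RA array 1 alone the difference was 1.68 (limma adjusted p = 8.48e-04), and 0.96 without it.

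Primitive endoderm, trophoblast and two-cell-like marker genes moved with RA too. The shares over all genes were 23.3% higher and 35.1% lower in sh-SIRT1 cells, and 19.9% higher and 27.2% lower in sh-Control cells. Of 12 primitive endoderm markers 9 rose in sh-SIRT1 cells and 8 in sh-Control cells, or 12 with sh-Control RA array 1 alone and 8 without it. The log2 of their summed signal was 4.64 to 5.37 in sh-SIRT1 RA arrays against 3.53 to 3.75 in sh-SIRT1 vehicle arrays, and 4.03 to 6.68 in sh-Control RA arrays against 3.91 to 4.39 in sh-Control vehicle arrays. Of 7 trophoblast markers 6 rose in both lines and Ascl2 fell in sh-Control cells, with summed levels of 6.12 to 7.31 in sh-SIRT1 RA, 4.59 to 6.93 in sh-Control RA, 3.25 to 3.68 in sh-SIRT1 vehicle and 3.23 to 3.30 in sh-Control vehicle arrays. In sh-Control vehicle cells Cdx2, Gata3, Hand1, the two-cell-like marker Zfp352 and the fibroblast marker Dcn were not well above background on any array, and in sh-SIRT1 vehicle cells Col3a1 and Dcn were not. All 5 two-cell-like markers rose in both lines, with summed levels of 6.54 to 7.64 in sh-SIRT1 RA, 7.62 to 8.11 in sh-Control RA, -1.58 to 0.69 in sh-SIRT1 vehicle and -1.87 to -0.32 in sh-Control vehicle arrays. Of 6 feeder fibroblast markers 5 rose in sh-SIRT1 and 3 in sh-Control cells, with summed levels of 2.88 to 3.80 in sh-SIRT1 RA, 2.71 to 4.17 in sh-Control RA, 1.24 to 1.44 in sh-SIRT1 vehicle and 2.96 to 3.05 in sh-Control vehicle arrays. Of the 8 stem cell markers 7 fell in sh-SIRT1 and 6 in sh-Control cells, and 1, Nanog, rose in both. With array 1 as the only sh-Control RA array, 3 stem cell markers fell in sh-Control cells (5 without it) and 5 feeder fibroblast markers rose (3 without it), while 6 trophoblast and 5 two-cell-like markers rose in either case. The part of these cell types in the members' differences was not tested, and in these bulk samples fewer cells of a type and less RNA per cell cannot be told apart.

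**Figure D2:**
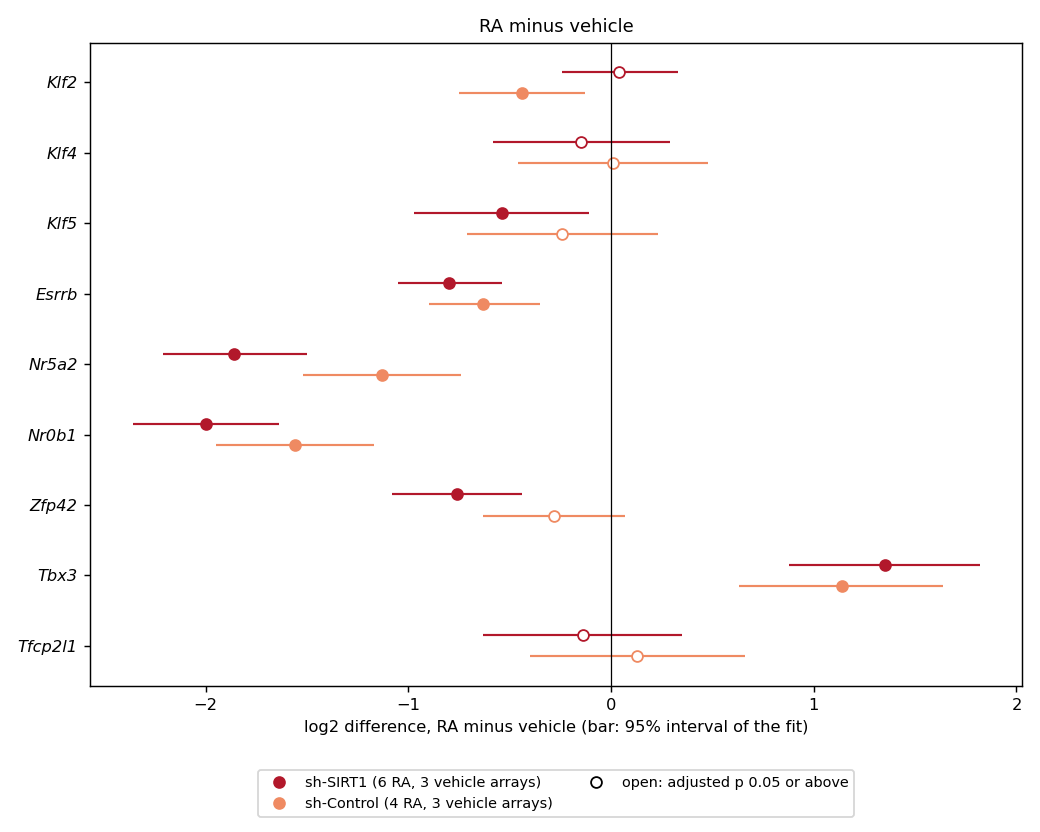
Log2 difference between RA and vehicle for the 9 genes in sh-SIRT1 cells (upper mark) and sh-Control cells (lower mark), with the 95% interval of the fit. Filled marks passed the threshold. Nr0b1 reached -2.00 in sh-SIRT1 and -1.56 in sh-Control cells and Tbx3 1.35 and 1.14, with the KLF members nearer to 0 on the brightest probe, the one drawn. The second probes, not drawn, gave -1.22 and -1.33 for Klf2 and -0.84 and -0.71 for Klf5, in the same order of lines.

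Zfp42 fell under RA in sh-SIRT1 cells. Its brightest probe lies at chr8:42080746-42080805. It gave 7.14, 6.98, 6.59, 6.50, 6.67 and 6.56 in sh-SIRT1 RA cells against 7.62, 7.47 and 7.40 in sh-SIRT1 vehicle cells, with no overlap. Sh-Control cells gave 7.54, 7.06, 7.13 and 7.11 under RA against 7.65, 7.35 and 7.46 in vehicle, and array 1 lay within the vehicle range. The difference was -0.76 ± 0.15 in sh-SIRT1 cells (limma adjusted p = 6.05e-04) and -0.28 ± 0.16 in sh-Control cells (limma adjusted p = 0.167, 95% interval -0.63 to 0.07). The second probe, whose position overlaps the first, gave -0.88 ± 0.15 in sh-SIRT1 cells, called, and -0.34 ± 0.17 in sh-Control cells, not called. Over the alternative analyses described below, apart from those that leave out each array in turn, the sh-SIRT1 value ran from -0.85 to -0.36. With quantile normalization the sh-Control value was 0.06. When sh-Control RA array 1 stood alone it was 0.05, and without it -0.39 (limma adjusted p = 0.0521).

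Of the Klf genes, Klf2 had probes that disagreed. The brightest, at chr8:70842757-70842816, is shown because it stands for the gene and its sequence holds 78.3% G and C, the highest share among the 17 probes, against 43.3% in the other Klf2 probe, at chr8:70844133-70844192.
Klf2 probe A_52_P442031: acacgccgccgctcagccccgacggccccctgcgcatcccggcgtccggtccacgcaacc

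This probe gave 6.55, 6.53, 6.37, 6.36, 6.21 and 6.33 in sh-SIRT1 RA cells against 6.54, 6.29 and 6.21 in sh-SIRT1 vehicle cells, which overlapped (0.04 ± 0.13, limma adjusted p = 0.794). With quantile normalization this value was 0.43 and called higher (limma adjusted p = 0.00343). The sh-Control arrays gave 6.47, 6.17, 6.41 and 6.24 under RA against 7.14, 6.55 and 6.58 in vehicle (-0.44 ± 0.14, limma adjusted p = 0.022). Sh-Control vehicle array 1 was the high one, and without it the difference was -0.25 and not called. The call was also lost with sh-Control RA array 1 alone (-0.29), with quantile normalization (-0.14), and was kept without array 1 (-0.49). The other probe gave 4.68, 4.59, 5.75, 5.44, 5.63 and 5.54 in sh-SIRT1 RA cells against 6.27, 6.60 and 6.59 in sh-SIRT1 vehicle cells. The sh-Control arrays gave 5.01, 4.99, 5.58 and 5.62 under RA against 6.48, 6.64 and 6.78 in vehicle. On this probe every RA array lay below every vehicle array, with differences of -1.22 ± 0.25 in sh-SIRT1 cells (limma adjusted p = 9.19e-04) and -1.33 ± 0.27 in sh-Control cells (limma adjusted p = 0.00135). Whether Klf2 fell therefore depends on the probe, and which of them follows the transcript was not tested.

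Klf4, a reprogramming factor, did not pass the test in either line. Its probe, at chr4:55541780-55541839, gave 6.82, 6.32, 6.37, 6.32, 6.33 and 6.31 in sh-SIRT1 RA cells against 6.70, 6.48 and 6.51 in sh-SIRT1 vehicle cells. The sh-Control arrays gave 7.51, 6.26, 6.75 and 6.70 under RA against 6.94, 6.70 and 6.75 in vehicle. Array 1 was the highest RA array in both lines. The difference was -0.15 ± 0.20 in sh-SIRT1 cells (95% interval -0.58 to 0.29) and 0.01 ± 0.22 in sh-Control cells (95% interval -0.46 to 0.48). For sh-Control RA array 1 alone Klf4 was higher under RA (0.71, limma adjusted p = 0.015), and without it the value was -0.23 (limma adjusted p = 0.242). With quantile normalization the sh-SIRT1 value was 0.24.

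Klf5, which overlaps with Klf2 and Klf4 in function, fell under RA in sh-SIRT1 cells. Its brightest probe spans chr14:93704580-93714312, so that its 60 bases are split on the genome. It gave 3.97, 4.01, 3.37, 3.41, 3.32 and 3.35 in sh-SIRT1 RA cells against 4.19, 4.06 and 4.09 in sh-SIRT1 vehicle cells. In sh-Control cells it gave 4.47, 3.55, 3.70 and 3.79 under RA against 4.30, 4.03 and 4.02 in vehicle. Array 1 was the exception in sh-Control cells and lay above all vehicle arrays, while in sh-SIRT1 cells RA arrays 1 and 2 lay just under them. The difference was -0.54 ± 0.20 in sh-SIRT1 cells (limma adjusted p = 0.0324) and -0.24 ± 0.22 in sh-Control cells (limma adjusted p = 0.386). The call in sh-SIRT1 cells was lost with quantile normalization (-0.21), with the label number as a block (-0.36), without the filter on dim probes (-0.54, limma adjusted p = 0.053), without any 1 of the 3 sh-SIRT1 vehicle arrays (-0.50, -0.57 and -0.55) and without any 1 of sh-SIRT1 RA arrays 3 to 6. The dimmer probe, at chr14:93706061-93706120, was called lower in both lines (-0.84 ± 0.20 in sh-SIRT1 and -0.71 ± 0.22 in sh-Control cells). With sh-Control RA array 1 alone the brightest probe gave 0.35 (limma adjusted p = 0.347), and without it -0.43 (limma adjusted p = 0.0693).

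Tfcp2l1, a target of Stat3 that supports self-renewal, did not pass the test for RA in either line. Its brightest probe, at chr1:118545588-118545647, gave 3.24, 2.90, 3.48, 3.39, 3.48 and 3.68 in sh-SIRT1 RA cells against 3.30, 3.59 and 3.60 in sh-SIRT1 vehicle cells. In sh-Control cells it gave 3.52, 3.42, 4.28 and 4.27 under RA against 3.29, 3.85 and 4.08 in vehicle. Within sh-Control RA cells arrays 3 and 4 lay above arrays 1 and 2, and all 4 probes showed that split. The difference was -0.14 ± 0.23 in sh-SIRT1 cells (95% interval -0.63 to 0.35) and 0.13 ± 0.25 in sh-Control cells (95% interval -0.40 to 0.66). With quantile normalization the sh-SIRT1 value was 0.16. When sh-Control RA array 1 stood alone the sh-Control value was -0.22, and without it 0.25, neither called.

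**Figure D3:**
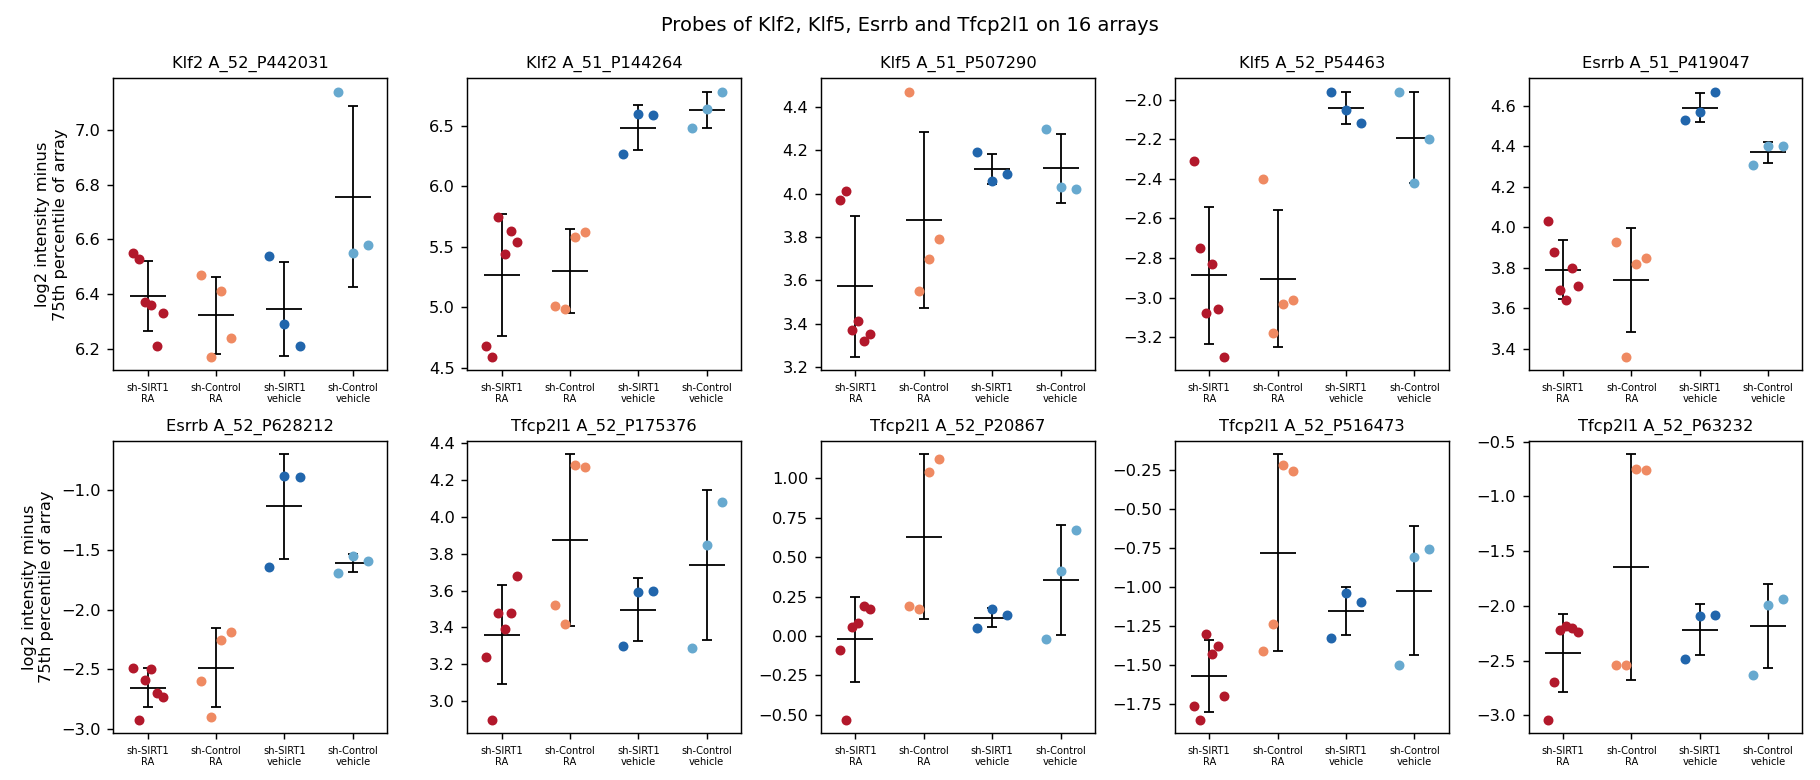
Levels on the 16 arrays (log2 scale, 0 at the 75th percentile of the array) of each probe of Klf2, Klf5, Esrrb and Tfcp2l1, with a point for each array and mean ± SD for each group. Of the Klf2 probes only the second separates RA from vehicle in both lines, both Esrrb probes lie lower under RA, and the 4 Tfcp2l1 probes share the high sh-Control RA arrays 3 and 4.

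Slides held arrays of both treatments, so RA differences could be taken within a slide (2 slides for sh-Control, 3 for sh-SIRT1). In sh-SIRT1 cells they were -1.96, -2.17 and -2.00 for Nr0b1, -2.05, -2.12 and -1.71 for Nr5a2, -0.93, -0.73 and -0.89 for Esrrb, and 1.18, 1.91 and 0.95 for Tbx3. In sh-Control cells they were -1.84 and -0.92 for Nr0b1, -1.33 and -0.92 for Nr5a2, -0.49 and -0.47 for Esrrb, and 1.29 and 1.55 for Tbx3. For these 4 genes every slide gave the direction of the pooled value. Zfp42 had -0.97, -0.95 and -0.61 in sh-SIRT1 cells and -0.52 and 0.08 in sh-Control cells, and Klf5 had -0.64, -0.87 and -0.40 in sh-SIRT1 cells and -0.59 and 0.44 in sh-Control cells. Klf4 had -0.15, -0.36 and -0.16 in sh-SIRT1 cells and -0.19 and 0.76 in sh-Control cells, and Tfcp2l1 had -0.20, 0.17 and -0.41 in sh-SIRT1 cells and 0.99 and -0.56 in sh-Control cells. In sh-Control cells these 4 genes differed in sign between slides, and the slide that held RA array 1 gave the positive value for Zfp42, Klf5 and Klf4 and the negative one for Tfcp2l1. Klf2 had 0.06, -0.33 and 0.24 in sh-SIRT1 cells and -0.73 and -0.11 in sh-Control cells.

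The hairpin was compared first under RA, with the same arrays that entered the RA comparisons. In sh-SIRT1 RA cells 3 of the 9 genes, Nr0b1, Nr5a2 and Zfp42, were lower than in sh-Control RA cells and 0 were higher, against 11.9% lower and 8.66% higher of all genes (20.5% in either direction). The members' median difference was -0.39, and that of all genes was -0.04. Nr0b1 was at -0.69 ± 0.15 (limma adjusted p = 0.00676), and its 6 sh-SIRT1 RA arrays, 2.46 to 2.87, all lay below the 4 sh-Control RA arrays, 2.92 to 3.90. Nr5a2 was at -0.51 ± 0.15 (limma adjusted p = 0.0277) and Zfp42 at -0.47 ± 0.14 (limma adjusted p = 0.0261), and for both the arrays of the lines overlapped. Sh-SIRT1 RA arrays 1 and 2 lay at or near the sh-Control RA levels, with Nr5a2 at 3.06 and 2.95 against 3.00 to 3.23. Zfp42 lay there at 7.14 and 6.98 against 7.06 to 7.54. Sh-SIRT1 RA arrays 3 to 6 lay lower, at 2.27 to 2.45 for Nr5a2 and 6.50 to 6.67 for Zfp42. With the replicate number as a block within treatment, Nr5a2 was at -0.40 and no longer called (limma adjusted p = 0.0518), and Tfcp2l1 was called at -0.62 (limma adjusted p = 0.0122).

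The choice of sh-Control RA arrays weighed on this comparison. With array 1 alone, Nr0b1 (-1.26), Klf4 (-1.10), Klf5 (-0.90) and Zfp42 (-0.80) were called lower in sh-SIRT1 cells, 4 of 9, and 0 were called higher, against 5.51% lower and 5.77% higher of all genes (11.3% in either direction), and Nr5a2 at -0.66 was not. Without array 1 only Nr0b1 was called (-0.49, limma adjusted p = 0.00812), with Nr5a2 at -0.47 (limma adjusted p = 0.0618) and Zfp42 at -0.36 (limma adjusted p = 0.0702). Fewer members were thus called than with all arrays, while over all genes the number called rose, to 4173 without array 1 against 3625. Without sh-Control RA array 2, 5 members were called, Klf4 (-0.57) and Tfcp2l1 (-0.67) among them, and 3822 of all 17665 genes. Without sh-SIRT1 RA array 3, 4 or 6, or with only the arrays of these 2 groups, 1 member was called, and likewise with normexp background correction. Over all genes these settings called 3046, 2797 and 2872 (arrays 3, 4 and 6), 3035 (only these groups) and 1191 (normexp). Primitive endoderm markers moved with the choice too, as 9 of 12 were lower in sh-SIRT1 cells with array 1 alone and 4 were higher without it, and their part in the members' values was not tested. Within slides Nr0b1 was at -0.68, -0.46 and -1.17, Nr5a2 at -0.78, -0.60 and -0.57, and Zfp42 at -0.63, -0.41 and -0.69, all lower in sh-SIRT1 cells.

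Tfcp2l1 gave negative differences on all 4 of its probes between sh-SIRT1 and sh-Control cells under RA, and the test passed on 2 of them. On each probe sh-Control RA arrays 3 and 4 lay above arrays 1 and 2. The brightest gave -0.51 ± 0.21 (limma adjusted p = 0.1), and -0.90, -0.37 and -0.06 within slides. With sh-Control RA array 1 alone it gave -0.16, and without array 1 -0.63. In a fit of every probe the others gave -0.65 ± 0.21 (limma adjusted p = 0.0412), -0.79 ± 0.24 (limma adjusted p = 0.0304) and -0.78 ± 0.36 (limma adjusted p = 0.138). The second probe of Zfp42 was called too (-0.52 ± 0.14), while that of Klf5 gave 0.02 and that of Klf2 -0.03. Klf2 (0.07 ± 0.12), Klf4 (-0.39 ± 0.18), Klf5 (-0.31 ± 0.18), Esrrb (0.05 ± 0.11) and Tbx3 (-0.28 ± 0.20) did not pass the test. With sh-Control RA array 1 alone Tbx3 was at -0.82. Without that array Tbx3 was at -0.10, Klf4 at -0.16 and Klf5 at -0.11.

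In vehicle, limma called 0 of the 9 genes between sh-SIRT1 and sh-Control cells, against 8.67% of all genes (4.4% higher and 4.26% lower in sh-SIRT1 cells). At an unadjusted p below 0.05 only Klf2 stood out, at -0.41 ± 0.15 on its brightest probe (limma adjusted p = 0.113) and -0.15 ± 0.29 on the other. Its 3 sh-SIRT1 vehicle arrays lay at 6.54, 6.29 and 6.21 against 7.14, 6.55 and 6.58 in sh-Control vehicle arrays. With the replicate number as a block within treatment Klf2 was called (limma adjusted p = 0.0329), as it was with quantile normalization (-0.43, limma adjusted p = 0.0436). The other 8 genes lay between -0.49 (Tbx3, 95% interval -1.03 to 0.05) and 0.22 (Esrrb, 95% interval -0.07 to 0.51).

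Klf2 and Zfp42 lie on chromosome 8, whose 918 genes tested were higher as a group in sh-SIRT1 cells. Their median difference was 0.25 under RA and 0.36 in vehicle, while the medians of the other chromosomes lay between -0.08 and 0.00 under RA and between -0.06 and 0.09 in vehicle. Under RA Zfp42 stood at the 4.58 percentile of the chromosome 8 genes and Klf2 at the 32 percentile, and in vehicle they stood at the 21.5 and 10.1 percentiles. After the chromosome 8 genes alone were centred on each array by their median deviation, Klf2 was called lower in vehicle (-0.74, limma adjusted p = 0.013) and Zfp42 was at -0.32 (limma adjusted p = 0.298), while under RA Klf2 was at -0.18 (limma adjusted p = 0.348) and Zfp42 was called lower (-0.72, limma adjusted p = 0.00274). The part of this chromosome-wide shift in either gene's difference was not tested further.

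**Figure D4:**
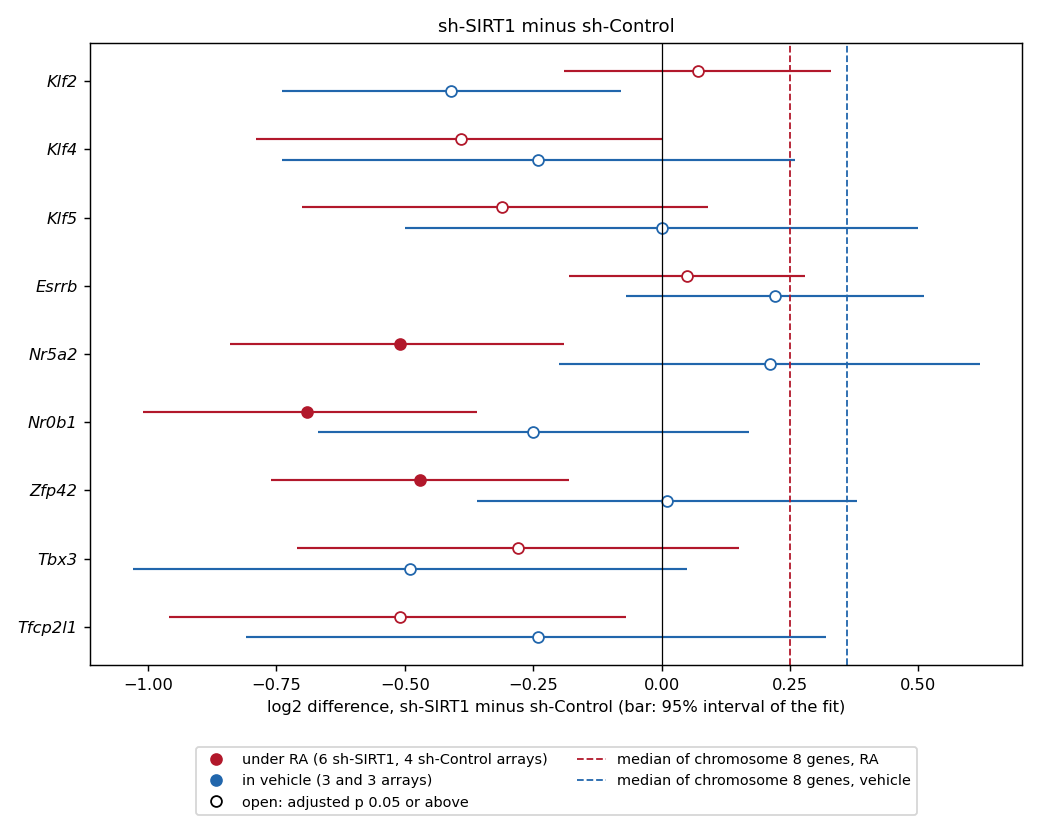
Log2 difference between sh-SIRT1 and sh-Control cells for the 9 genes under RA (upper mark) and in vehicle (lower mark), with the 95% interval of the fit and filled marks past the threshold. Dashed lines give the median of the chromosome 8 genes, 0.25 under RA and 0.36 in vehicle, to the right of Klf2 and Zfp42.

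The difference between the RA effects of the lines was not called for any member by limma (0 of 9), against 3.7% of all genes (1.74% more positive and 1.96% more negative in sh-SIRT1 cells). At an unadjusted p below 0.05 there were 3, Nr5a2 (-0.73 ± 0.24, limma adjusted p = 0.107), Klf2 (0.48 ± 0.20, limma adjusted p = 0.181) and Zfp42 (-0.48 ± 0.22, limma adjusted p = 0.243). The second Klf2 probe gave 0.12 ± 0.37. With sh-Control RA array 1 alone Nr5a2 was at -0.87, Klf2 at 0.33 and Zfp42 at -0.81. Without that array Nr5a2 was at -0.68, Klf2 at 0.53 and Zfp42 at -0.37. Nr5a2 was called without sh-SIRT1 RA array 1 (-0.82, limma adjusted p = 0.0414). For sh-Control RA array 1 alone Nr0b1 was called (-1.01, limma adjusted p = 0.0485), against 1.17% of all genes (0.589% more positive and 0.583% more negative in sh-SIRT1 cells). That Klf5 and Zfp42 passed the test for RA in sh-SIRT1 cells and not in sh-Control cells is therefore not a shown difference between the lines.

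The factors around which the naive network is built responded in mixed directions. To set beside the counts of this and the next lists, 23.3% of all genes rose and 35.1% fell under RA in sh-SIRT1 cells. In sh-Control cells 19.9% rose and 27.2% fell. Between lines under RA 8.66% were higher and 11.9% lower in sh-SIRT1 cells. The lists were not tested against these shares. Of the core factors Pou5f1, Sox2, Nanog and Sall4, 3 fell and 1 rose under RA in both lines, with a median of -0.81 in sh-SIRT1 cells and -0.40 in sh-Control cells. Nanog rose, by 0.72 ± 0.14 in sh-SIRT1 cells (limma adjusted p = 6.31e-04) and 1.30 ± 0.15 in sh-Control cells (limma adjusted p = 1.53e-05), and Sox2 fell by 1.38 in sh-SIRT1 and by 0.54 in sh-Control cells. Pou5f1 was at -0.98 in sh-SIRT1 and -0.65 in sh-Control cells, and Sall4 at -0.65 and -0.25. With sh-Control RA array 1 alone only Nanog was called in sh-Control cells (1.01), and Pou5f1 was at -0.13, Sox2 at -0.43 and Sall4 at -0.30. Without array 1 Nanog, Pou5f1 and Sox2 were called. Between lines under RA, Sox2 (-0.95), Nanog (-0.76) and Sall4 (-0.48) were lower in sh-SIRT1 cells, 3 of 4. With array 1 alone only Sox2 was called there (-1.06), and without it all 3 were.

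The LIF and Wnt inputs also moved in both directions. Of 11 genes tested, 3 rose and 6 fell under RA in sh-SIRT1 cells, and 3 rose and 5 fell in sh-Control cells, with a median of -0.31 in sh-SIRT1 and -0.30 in sh-Control cells. Lifr (-1.58 ± 0.24 in sh-SIRT1 and -1.30 ± 0.26 in sh-Control cells), Stat3 (-0.93 in sh-SIRT1 cells), the kinase Pim3 (-1.29 in sh-Control cells) and Il6st were called lower in both lines, and the Stat3 target Socs3 in sh-SIRT1 cells. The kinases Jak1 (0.85 in sh-SIRT1 and 0.81 in sh-Control cells) and Pim1 (1.03 in sh-SIRT1 and 1.17 in sh-Control cells) and the repressor Tcf7l1 were called higher in both. When sh-Control RA array 1 stood alone 2 of the 11 rose and 2 fell in sh-Control cells: Jak1, Pim1, Lifr (-0.66) and Stat3 kept their calls, while Pim3 (-0.43, limma adjusted p = 0.165), Il6st (-0.65, limma adjusted p = 0.0512) and Tcf7l1 lost theirs. Without array 1 3 rose and 5 fell. Between lines, Tcf7l1 was lower in sh-SIRT1 cells under RA (-0.44 ± 0.09) and in vehicle (-0.41 ± 0.12, limma adjusted p = 0.0405), and under RA so were Stat3 (-0.34) and Ctnnb1, which encodes beta-catenin (-0.19). With array 1 alone Tcf7l1 (-0.18), Stat3 (-0.22) and Ctnnb1 (-0.11) were not called under RA, and without it these 3 were.

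Other genes of the naive state moved in both directions too. Of 12, 2 rose and 5 fell under RA in sh-SIRT1 cells, and 1 rose and 4 fell in sh-Control cells, with a median of -0.68 in sh-SIRT1 and -0.48 in sh-Control cells. Gdf3, a TGF-beta family ligand, fell by 1.64 in sh-SIRT1 and by 1.43 in sh-Control cells, the homeobox gene Gbx2 by 1.17 and 1.51, and the cell cycle factor Mybl2 by 1.00 and 0.96. Tcl1, an activator of Akt, fell by 1.33 in sh-SIRT1 cells and was at -0.73 in sh-Control cells, not called. Myc was called lower in both lines, Pecam1 was called higher in sh-SIRT1 cells, and Fbxo15, an F-box gene used as a stem cell reporter, rose in both lines, by 1.24 ± 0.24 in sh-Control cells. For sh-Control RA array 1 alone, Gdf3 (-1.80) and Gbx2 (-1.62) kept their calls, Mybl2 (-0.47), Myc (-0.48) and Fbxo15 (0.88) lost theirs, and Jam2 was called higher (1.06). Without array 1, 1 rose and 5 fell. Between lines under RA, Gbx2 was higher (0.89 ± 0.25) and Fbxo15 (-1.01 ± 0.20), Pecam1 (-0.82) and Mybl2 (-0.48) lower in sh-SIRT1 cells. With array 1 alone Gbx2 (1.01), Fbxo15 (-0.65) and Pecam1 (-0.42) were not called and Mybl2 was (-0.97), and without it Mybl2 was not (-0.31).

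Genes of the formative and primed states, to which naive cells pass in the epiblast, were counted in the same way. Of 11 tested, 1 rose and 6 fell in sh-SIRT1 cells, and 0 rose and 6 fell in sh-Control cells, with a median of -0.88 in sh-SIRT1 and -0.71 in sh-Control cells. Over all genes too, more were called lower than higher in both lines. The homeobox gene Otx2 fell by 4.45 in sh-SIRT1 and by 4.00 in sh-Control cells, Lef1 by 1.51 and 3.23, and the DNA methyltransferase Dnmt3b by 1.62 and 1.42. Etv5 was at -1.32 in sh-Control cells and was called lower in both lines, Zic2 in sh-SIRT1 and Pou3f1 in sh-Control cells. Cdh2, N-cadherin, rose in sh-SIRT1 cells (2.27 ± 0.40) and was at 0.21 in sh-Control cells, not called. With sh-Control RA array 1 alone 4 of the 11 fell in sh-Control cells, and Otx2 lost its call (-3.07, limma adjusted p = 0.0534), and without it 6 fell. Between lines, Cdh2 was higher (1.67) and Zic2 (-1.29) and Dnmt3b (-0.76) lower in sh-SIRT1 cells under RA, and Lef1 was lower in vehicle (-1.28). With array 1 alone Cdh2 (1.67) and Dnmt3b (-1.18) kept their calls, Zic2 (-1.26) did not, and Lef1 was called higher in sh-SIRT1 cells (1.56). Without array 1 Cdh2, Zic2 and Dnmt3b were called.

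Among 14 other Klf genes 3 rose and 6 fell in sh-SIRT1 cells, and 3 rose and 8 fell in sh-Control cells, with a median of -0.35 in sh-SIRT1 and -0.51 in sh-Control cells. Of all genes 23.3% rose and 35.1% fell in sh-SIRT1 cells, and 19.9% rose and 27.2% fell in sh-Control cells. Klf14 was not well above background in vehicle, so the size of its rise is uncertain. It was estimated as 8.78-fold higher under RA in sh-SIRT1 cells (3.13 ± 0.22) and 4.45-fold higher in sh-Control cells (2.15 ± 0.24). Klf15 fell by 2.10 in sh-SIRT1 and by 2.04 in sh-Control cells. Klf9 was at -1.33 in sh-SIRT1 and -0.49 in sh-Control cells, Klf12 at -1.21 and -1.64, Klf6 at 1.22 and 0.49, and Klf17, which is expressed in the early human embryo, at 0.95 and 1.15, all 4 called in both lines. Klf1, Klf3 and Klf16 were called lower in both lines, and Klf10 and Klf13 in sh-Control cells. When sh-Control RA array 1 stood alone 2 rose and 2 fell in sh-Control cells, and Klf15 was at -0.49 and not called (limma adjusted p = 0.51), nor were Klf9 (0.04) and Klf6 (0.58). Without it 2 rose and 9 fell, with Klf15 at -2.55. Between lines under RA, Klf9 (-0.98) and Klf17 (-0.88) were lower and Klf12 (0.70), Klf6 (0.66) and Klf14 higher in sh-SIRT1 cells. With array 1 alone Klf9 (-1.51) and Klf12 (0.76) kept their calls and Klf17 (-0.74), Klf6 (0.57) and Klf14 did not, and without it all 5 were called. Of the nuclear receptor relatives, Esrra, Esrrg and Nr5a1 passed the filter and Nr0b2 did not, and limma called 0 of the 3 for RA in either line, with 1 (Esrra, 0.26) at an unadjusted p below 0.05 in sh-SIRT1 and 0 in sh-Control cells. Esrra was called higher in sh-Control cells with RA array 1 alone (0.46, limma adjusted p = 0.0103).

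The genes whose profile lay nearest to each member were sought over the 16 arrays as the smallest root mean square difference between centred log2 values among 14564 genes with a symbol. For Nr0b1, which itself varied with a standard deviation (SD) of 0.96, they were Adam23 (0.16), Nkx6-2 (0.22) and Platr10 (0.23). For Nr5a2 (SD 0.80) they were Hpdl (0.18), Ctbp2 (0.20) and Utp14a (0.20), and for Tbx3 (SD 0.68) Sema4g, Stard10 and Sema7a (0.18 each). Zfp42 (SD 0.38) lay nearest to Bola2, Cks2 and Ddias (0.11 each), and Esrrb (SD 0.38) to Naa16 (0.10), Atp6v1h (0.12) and Map4k3 (0.13). Klf5 (SD 0.35) lay nearest to Sapcd2 (0.11) and Zbtb7b (0.14), with Zfp42, another member, as the third (0.15). Klf4 (SD 0.31) lay nearest to Eif2s2 (0.15), Yif1a (0.16) and Acad9 (0.17), Tfcp2l1 (SD 0.37) to Gmpr (0.14), Ppfia4 (0.15) and Vps13c (0.16), and Klf2 (SD 0.23) to Cox17 (0.06), Grin2d and Ptms (0.10 each). Genes that vary little lie near many others on this measure.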

How the data were processed

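RNA of the 16 samples was measured on 1-colour (Cy3) Agilent Whole Mouse Genome arrays. Per the file headers, the deposited intensity values came from Feature Extraction 9.5.3.1 (9.5 per the submitters' processing notes), with spatial and multiplicative detrending and surrogate values for signals near background, and probe positions refer to build mm7. The deposited series matrix held the same intensities, unscaled, with column medians of 46.0 to 91.4, and was not used further.

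Control spots were left out, outlier spots (87 to 131 per array) were set missing, and from the log2 intensity the 75th percentile of its array was subtracted. Spots of a probe were averaged. Probes entered the fit with a value on at least 14 arrays and a signal well above background throughout 1 or more groups, which gave 26393 probes and 17665 genes, 14603 of them with a symbol. Between 60.1% and 68.0% of probes per array were well above background, and the number of arrays limits the precision. Limma 3.58.1 (R 4.3.3) fitted 4 group means on all arrays with 12 residual degrees of freedom and 5 contrasts, two-sided. The fit was tested on simulated data with independent noise on each array. The likeness between arrays described below was not simulated, so its effect on the p-values was not tested. Motif matches came from RefSeq promoters.

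The members and lists were chosen with earlier results of these data known. The text names all members, of each further list the called genes, with values for the 4 largest per comparison and, chosen after seeing them, for a few others beside these (some list genes are not reported here), and for each member the 3 nearest genes. Within a treatment, same-numbered sh-SIRT1 and sh-Control arrays correlated in their deviations from the group means by 0.37 to 0.54. Between the treatments of a line, same-numbered arrays gave -0.21 to 0.22. Differently numbered arrays of the lines were not compared, so whether the replicate numbers in the labels pair the lines was not tested. The closest arrays of a group were sh-Control RA 3 and 4 (SD of the log2 difference 0.212, others 0.266 to 0.738), and each array counted as a sample of its own. On this measure the sh-SIRT1 RA arrays split into 1 and 2 (0.322) and 3 to 6 (0.266 to 0.361), with 0.528 to 0.617 between the parts. The alternatives were another background correction, normalization, filter, probe rule or block, only the arrays compared, sh-Control RA array 1 alone, each array left out, and the chromosome 8 genes centred.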

Additional observations from a re-analysis of the deposited data

Results flagged for a closer look

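Of 18 groups of arrays tested for a single distant array among the members, 2 had one, and chance alone marks about 1 in 20 groups. Klf4 stood at 6.82 on sh-SIRT1 RA array 1, while the other 5 arrays of that group lay between 6.31 and 6.37. Zfp42 stood at 7.54 on sh-Control RA array 1, while the other 3 arrays lay between 7.06 and 7.13. These 3 are the arrays that stood apart from the rest by Ddx3y.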

How the results depend on the processing

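Esrrb, Nr0b1, Nr5a2 and Tbx3 kept direction and call in all 27 alternatives for RA in both lines, as did Zfp42 for RA in sh-SIRT1 cells, and Nr0b1 in all 28 between lines under RA. Klf2 for RA in sh-Control cells lost its call in 7 of 27, Klf5 for RA in sh-SIRT1 cells in 10 of 27, and between lines under RA Zfp42 in 6 and Nr5a2 in 14 of 28. Members called in vehicle were 1, against 0, with quantile normalization, with the chromosome 8 genes centred and with the replicate block within treatment, an alternative chosen after seeing the data. Under RA they were 1, against 3, with normexp and with only the arrays compared, and 1 to 5 with an array left out. For the difference of RA effects they were 1, against 0, with sh-Control RA array 1 alone, and 0 to 1 with an array left out. With the label number as a block over all arrays the calls were 5 for RA in each line, 0 in vehicle, 3 under RA and 0 for the difference.

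Klf2 for RA in sh-SIRT1 cells gained a call with quantile normalization (0.43). Values that changed sign were not called, except Klf2 for RA in sh-SIRT1 cells as the mean of its probes (-0.59, limma adjusted p = 7.86e-04), where the 2 probes differ. Normexp gave Klf4 -0.08 for RA in sh-Control, Klf2 -0.03 for RA in sh-SIRT1 cells and Klf5 0.02 in vehicle. Quantile normalization gave for RA Zfp42 0.06 in sh-Control cells, and Klf4 0.24 and Tfcp2l1 0.16 in sh-SIRT1 cells. The mean of probes gave Klf5 0.07 in vehicle and Esrrb -0.06 under RA. The slide as a block gave Klf5 0.12 in vehicle, Esrrb -0.01 under RA and Tbx3 -0.13 for the difference. Chromosome 8 genes centred gave Zfp42 -0.32 in vehicle and Klf2 -0.18 under RA. Array 1 alone gave Klf5 0.35, Zfp42 0.05 and Tfcp2l1 -0.22 for RA in sh-Control cells, Klf2 -0.08 and Esrrb -0.14 under RA, and Tbx3 -0.33 and Tfcp2l1 0.08 for the difference. With an array left out the ranges were -0.23 to 0.19 (Klf4) and -0.09 to 0.30 (Tfcp2l1) for RA in sh-Control, -0.03 to 0.14 (Klf2) for RA in sh-SIRT1, -0.05 to 0.09 (Klf5) and -0.06 to 0.09 (Zfp42) in vehicle, -0.08 to 0.11 (Esrrb) under RA, and -0.34 to 0.08 (Klf4) and -0.07 to 0.39 (Tbx3) for the difference. The cause was not tested.

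The number of all genes called was lower with normexp: 4674 against 8312 for RA in sh-Control cells, 336 against 1531 in vehicle, 1191 against 3625 under RA and 25 against 654 for the difference. Under RA 3035 genes were called with only the arrays compared, and 2447 to 4173 with an array left out. In vehicle they were 944 with the slide block, 2304 with array 1 alone, 3406 with the replicate block within treatment, and 716 to 2165 with an array left out. Under RA they were 1992 with array 1 alone, and for the difference 278 without a filter, 89 with the slide block, 151 with the number block, 207 with array 1 alone, 1623 with the replicate block within treatment, and 199 to 1832 with an array left out.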
